A study of Mus musculus with 9 samples.

Results

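Brown adipose tissue was compared with epididymal white adipose tissue, the visceral fat pad of male mice, by the messenger RNA that copurified with ribosomes. The comparison used 6 of the 9 libraries of the series, 3 from brown fat (BAT 1 to 3) and 3 from epididymal white fat (eWAT 1 to 3). The other 3, from inguinal white fat (iWAT), entered the fit only to share its estimate of spread. All libraries came from C57BL/6 mice aged 8 weeks and labelled wild type. Pieces of frozen tissue were homogenized, the fat layer was taken off, and an antibody against GFP was used to pull down ribosomes. Every group shares that pull-down. The name of the deposited table refers to adiponectin, a hormone of fat cells, and to TRAP, the pull-down of tagged ribosomes, and the title of the series speaks of adipocytes. The sample labels themselves do not say which cells carried a GFP tag, which promoter drove one, or whether replicates came from separate mice, so the p-values rest on how much these samples vary, which may be technical. A gene was tested when it reached 1 FPKM (fragments counted on a transcript, divided by its length in kilobases and by the depth of the library) in at least 3 of the 9 libraries, which left 10374 of 22527 gene symbols.

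The third BAT library is brown fat by title and source but inguinal by its tissue label, and its Ucp1 value (below) lies with those of BAT 1 and 2. Its value of Nnat, a gene lower in BAT, was 36.1 FPKM against 4.17 and 4.61 in BAT 1 and 2. For Sncg, also lower, it was 12.4 against 4.92 and 3.505. Of the 1398 genes called lower in BAT below, BAT 3 was the highest BAT library for 26.5%. Which label is right was not tested. Read totals (M for mega) were estimated from the step size of low FPKM values. BAT 1, 2 and 3 came to about 11.1, 21.2 and 14.8 M, and eWAT 1, 2 and 3 to 16, 4.46 and 4.61 M, so eWAT 2 and 3 were the shallow libraries of the comparison. Fewer reads make low values less certain. Correlations of log2(FPKM + 1) across the tested genes were 0.985 to 0.986 within BAT, 0.948 to 0.977 within eWAT and 0.823 to 0.873 between the depots. Because eWAT 1 stood apart from eWAT 2 and 3 for some genes, the main lists below are also counted in a fit without eWAT 2 and 3. There the 1 remaining eWAT library is assumed to vary like the other groups, and 966 genes were called higher and 461 lower.

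Brown adipocytes burn fatty acids to make heat. Their mitochondria hold uncoupling protein 1, which lets protons back across the inner membrane without making ATP, and noradrenaline starts the process through beta-adrenergic receptors and cyclic AMP. White adipocytes store triglyceride in 1 large droplet, release fatty acids on demand and secrete hormones such as leptin, resistin and adiponectin. Epididymal fat is the visceral pad most often studied in mice, and it expresses little of the thermogenic program at rest.

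A log2 difference below is BAT minus eWAT on the log2(FPKM + 1) scale, and a number in parentheses after a gene is its log2 difference. At an adjusted p under 0.05 (limma, Benjamini-Hochberg over all tested genes), 2094 genes were higher in BAT, 20.2% of those tested, and 1398 were lower, 13.5%. Of these, 1558 and 1010 differed at least 2-fold on that scale, which understates changes of weakly expressed genes, and 137 and 112 at least 8-fold. The median difference over all tested genes was -0.02. All 3 BAT values lay above all 3 eWAT values for 32.0% of tested genes and below them for 22.7%. Of the 12 largest differences upward, 10 belonged to a list of uncoupling and brown thermogenic genes. The 12 largest downward included Nnat, Agt, Sncg and Lep from a list of white adipocyte genes.

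The uncoupling protein Ucp1 (chromosome 8, 85814247 to 85822355, protein-coding, mm9) was at 2626, 2434 and 3054 FPKM in BAT 1 to 3 and 3.38, 0.6302 and 2.5 FPKM in eWAT 1 to 3, a log2 difference of 9.85 (standard error 0.34 and adjusted p = 1.01e-07). Cidea, which coats lipid droplets (chromosome 18, 67503218 to 67527448), reached 4087, 4462 and 4672 FPKM in BAT and 10.5, 5.76 and 4.01 in eWAT. The groups were far apart for both genes. The tissue-specific cytochrome oxidase subunits followed, with Cox7a1 (chromosome 7, 30969190 to 30971047) at 5881, 4481 and 4886 FPKM in BAT and 22.2, 19.5 and 7.57 in eWAT and Cox8b (chromosome 7, 148084842 to 148086345) at 14364, 12558 and 12932 FPKM in BAT and 43.2, 45.1 and 39.8 in eWAT. Fabp3, a cytosolic fatty acid carrier of muscle and brown fat (chromosome 4, 129985839 to 129992707), was at 1116, 1169.7 and 1269 FPKM in BAT and 3.26, 4.34 and 2.501 in eWAT. Abi3, an adaptor of actin regulation, stood at 199, 166 and 190.2 FPKM in BAT and 1.302, 0.751 and 0.733 in eWAT, and S100b, a calcium-binding protein that brown fat secretes, at 122, 153 and 145 FPKM in BAT and 0.609, 0.777 and 0.3097 in eWAT. Next came the very-long-chain acyl-CoA synthetase Slc27a2, with 84.3, 211 and 87.03 FPKM in BAT and 0.6702, 0 and 0.311 in eWAT; the 0 is as listed and can be a failed estimate. The pyruvate dehydrogenase kinase Pdk4, which turns pyruvate away from oxidation, was at 479, 449.7 and 538 FPKM in BAT and 6.02, 2.05 and 10.4 in eWAT. Among the last 3, the proton channel Otop1 differed by 6.27 log2 units, Pank1, which starts coenzyme A synthesis, by 5.59, and the potassium channel Kcnk3 by 5.45. The plot of the largest differences gives the points of all 12 genes, which were chosen among genes whose groups do not overlap.

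**Figure D1:**
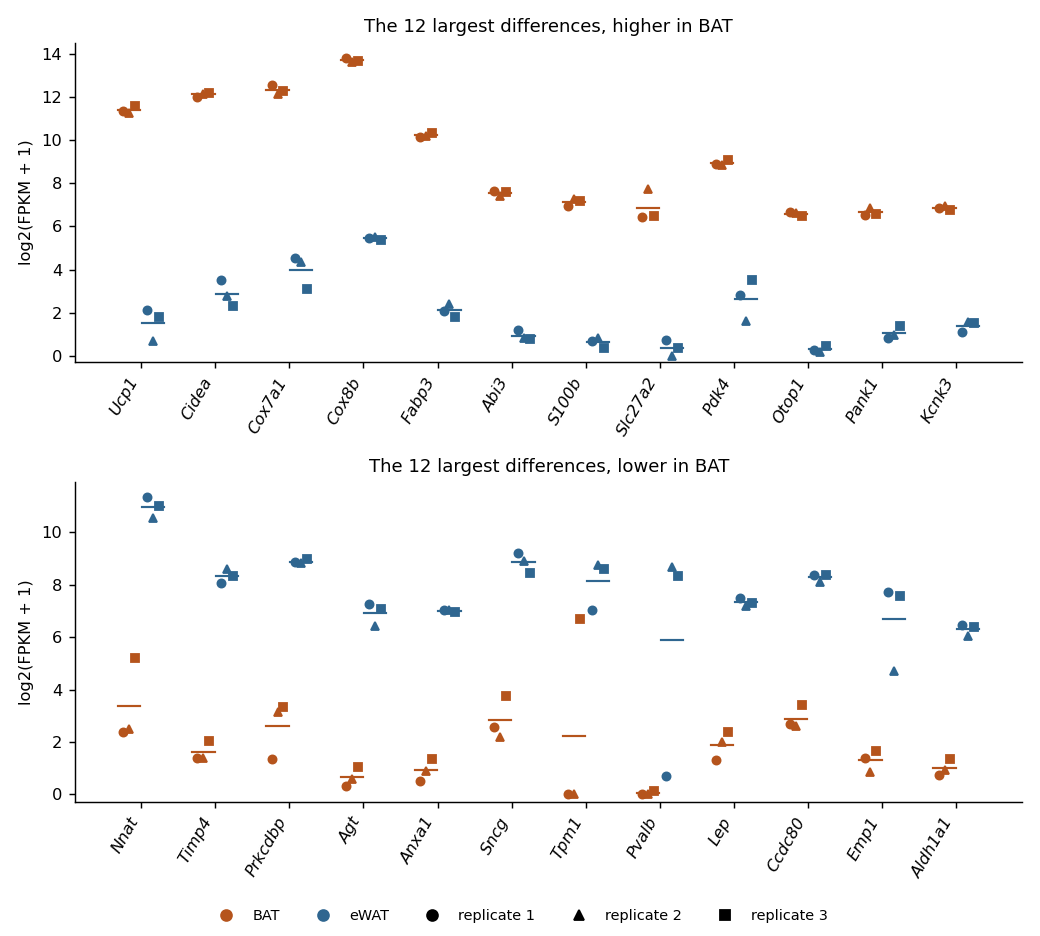
Values of the 12 genes with the largest differences in each direction, as log2(FPKM + 1) on the vertical axis, with 1 point per library (circle, triangle and square for replicates 1, 2 and 3) and a line for the group mean (n = 3). Genes had to have groups that do not overlap to be among the 24. Tpm1 is near eWAT in BAT 3 and Pvalb is near BAT in eWAT 1.

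Of the 27 tested genes on a list of uncoupling and brown thermogenic genes, 25 were called higher and 1 lower in BAT, with a median log2 difference of 4.71; 24 were higher in the fit without eWAT 2 and 3. Because such lists were drawn up from known brown fat biology with earlier results of these data in view, their counts describe and do not test. The summed FPKM of the list was 78.3 times as high in BAT. This factor describes mainly the most abundant members. Cox8b, Cox7a1, Cidea and Ucp1, with means of 13284, 5082, 4407 and 2704 FPKM in BAT, made up most of the mean list sum of 28500. The second uncoupling protein on the list, Ucp3, known from muscle, was at 50.5, 44.9 and 27.3 FPKM in BAT and 2.57, 2.89 and 4.49 in eWAT. Their widely expressed relative Ucp2, outside the list and added after its values were seen, was at 8.47, 4.49 and 5.02 FPKM in BAT and 1.36, 1.21 and 3.76 in eWAT (1.22, adjusted p = 0.0321). Dio2, which makes active thyroid hormone inside brown fat, was at 19.7, 24 and 96.4 FPKM in BAT and 0.0626, 0.462 and 0.07502 in eWAT, so that BAT 3 was several times above its partners. Elovl3, an elongase that cold induces, was at 25.1, 41.7 and 18.8 FPKM in BAT and 0, 0 and 0 in eWAT. The receptor channel P2rx5, a surface marker of brown adipocytes, differed by 4.62 log2 units, and the amino acid transporter Slc36a2 by 2.701. Ppargc1a, the cold-inducible coactivator of mitochondrial genes, was at 4.36, 3.79 and 15.1 FPKM in BAT and 1.35, 6.46 and 4.89 in eWAT; BAT 3 was far above BAT 1 and 2, the groups overlapped, and it was not called (adjusted p = 0.351). The single member lower in BAT was the beta-3 receptor Adrb3, at 83.7, 66.04 and 106 FPKM in BAT and 173, 164 and 169 in eWAT (-1.001, adjusted p = 0.0427). Bmp8b, a growth factor of brown fat, did not reach the test. The calls of Ucp2 (without BAT 1, BAT 2, BAT 3, eWAT 1 or eWAT 2) and Adrb3 (without any of the 6 BAT and eWAT libraries) were lost with 1 such library left out.

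Genes of other heat-producing cycles were split, with 20% called higher and 50% lower beside 20.2% and 13.5% of all tested genes. Of 10 tested genes of creatine and calcium cycling, 2 were higher and 5 lower in BAT (2 lower without eWAT 2 and 3). Ckb, the creatine kinase of adipocytes, was at 12.3, 21.4 and 19.1 FPKM in BAT and 64.7, 56.3 and 58.2 in eWAT. Gamt, the enzyme of the second step of creatine synthesis, was at 2.65, 8.01 and 10.4 FPKM in BAT and 76.3, 71.2 and 72.7 in eWAT, a log2 difference of -3.37 (adjusted p = 0.000895). Both were lower in every BAT library than in any eWAT library, eWAT 1 included. The mitochondrial kinase Ckmt1 (-1.86, adjusted p = 0.0193) was lower as well, but at 3.605 FPKM in eWAT 1 against 13.4 and 11.2 in eWAT 2 and 3. Its relative Ckmt2 was listed at 0 in all 3 BAT libraries and in eWAT 1 and was not called, and the enzyme of the first step, Gatm, stayed below 1 FPKM in all 6 libraries and was not tested. The creatine transporter Slc6a8 was at 8.99, 4.43 and 6.47 FPKM in BAT and 4.402, 17.02 and 16.98 in eWAT and was not called. Alpl, a phosphatase placed in the creatine cycle of thermogenic fat, was higher, at 3.26, 1.91 and 4.33 FPKM in BAT and 0.149, 0 and 0 in eWAT. Of the calcium genes, the release channel Itpr1 was higher (1.42) and the muscle pump Atp2a1 (-1.86) and the pump Atp2a3 (-0.67) were lower. Atp2a1 was at 0.1097, 0.102 and 0.141 FPKM in BAT and 0.134, 7.404 and 5.96 in eWAT, with eWAT 1 among the BAT values. Without eWAT 2 and 3, the libraries that also held skeletal muscle markers, its difference was -0.02 (limma, adjusted p = 0.984). The pump Atp2a2 was at 36.2, 35.2 and 37.3 FPKM in BAT and 14.6, 37.6 and 37.5 in eWAT and was not called. The muscle regulators Sln and Ryr2 did not reach the test. The calls of Ckmt1 (without BAT 2, BAT 3, eWAT 2 or eWAT 3), Atp2a3 (without any of the 6 BAT and eWAT libraries) and Atp2a1 (without BAT 1, BAT 2, BAT 3, eWAT 2, eWAT 3 or iWAT 3) were lost with 1 such library left out.

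Genes of the respiratory chain were higher in BAT across nearly all subunits. Of 37 tested genes listed for complex I, the NADH dehydrogenase, 36 were higher and none was lower, with a median difference of 1.88. Ndufa4, named for complex I but now assigned to complex IV, was counted with complex I here and in the sums below. The largest were Ndufa10 (3.03), Ndufs8 (2.898), Ndufb5 (2.81) and Ndufb6 (2.55), and the exception was Ndufa2, at 1409.9, 1321 and 1218 FPKM in BAT and 996, 781 and 640.2 in eWAT (adjusted p = 0.0544). All 14 genes of complexes II and III and cytochrome c were higher. The electron carrier Cycs, cytochrome c, had the largest difference among them, at 913, 793 and 881 FPKM in BAT and 63.3, 65.1 and 76.4 in eWAT (3.64). The core proteins of complex III, Uqcrc1 (3.09) and Uqcrc2 (2.94), came next. They were followed by cytochrome c1, Cyc1 (2.89), and the iron-sulfur protein Uqcrfs1 (2.73). The small subunits Uqcr10, Uqcrb, Uqcr11, Uqcrq and Uqcrh lay between 2.01 and 2.38. The 4 succinate dehydrogenase genes Sdhb, Sdhd, Sdha and Sdhc lay between 1.95 and 2.77. Without eWAT 2 and 3 the counts were 21 for complex I and 13 for complexes II and III.

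Measured as the share of all FPKM in a library, complex I genes made up 7.18, 7.13 and 7.15% in BAT 1 to 3 and 2.89, 2.33 and 2.16% in eWAT 1 to 3. Complex IV genes, those of cytochrome oxidase, made up 10.8, 9.94 and 10.2% and 2.77, 2.16 and 1.98%. The 4 parts of the chain did not differ by 1 common factor. Summed FPKM was 3.55 times as high in BAT for complex I, 4.98 times for complexes II and III with cytochrome c, 5.47 times for complex IV and 3.14 times for ATP synthase. Without Cox7a1 and Cox8b the factor of complex IV was 4.06. Without Atp5g1 and Atp5g3 that of ATP synthase was 3.74, above complex I, so the order of the parts depended on these genes. Within eWAT, the sums were highest in eWAT 1 for all of these lists. In bulk samples fewer cells of a type and less RNA per cell cannot be told apart, here and in every result that follows.

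Cytochrome oxidase has subunits encoded by 2 genes, of which 1 is favoured in heart, muscle and brown fat. Cox7a1 held 80.5, 77.2 and 78.6% of the summed FPKM of Cox7a1 and Cox7a2 in BAT 1 to 3 and 4.72, 4.91 and 2.26% in eWAT 1 to 3. Cox8b held 69.1, 69.5 and 68.3% of Cox8a and Cox8b in BAT and 1.46, 2.42 and 1.91% in eWAT. The widely expressed partners were higher in BAT too: Cox7a2 differed by 1.83 (adjusted p = 0.00292) and Cox8a by 1.43 (adjusted p = 0.0121). The muscle-type Cox6a2 did not follow, at 0, 0 and 0 FPKM in BAT and 0, 3.44 and 2.75 in eWAT (adjusted p = 0.086). Its partner Cox6a1 was higher (2.23), and so were Cox6b2 (2.44), known from testis, and its partner Cox6b1 (2.105). Cox4i1 was higher (1.702) and the lung-type Cox4i2 was not tested. The remaining subunits Cox7b, Cox5a, Cox5b, Cox6c and Cox7c lay between 2.01 and 2.95. In all, 13 of 14 tested subunits were higher (9 without eWAT 2 and 3). The call of Cox8a was lost when eWAT 2 was left out.

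ATP synthase, the enzyme that uncoupling bypasses, had 15 of 19 tested genes higher and 3 lower in BAT (7 and 2 without eWAT 2 and 3). The catalytic subunits Atp5b (2.53) and Atp5a1 (2.43) led those that were higher, with Atp5j2 (2.23) and Atp5o (2.23). The lower ones included 2 of the 3 genes for subunit c, which forms the membrane ring. Atp5g1 was at 3.76, 6.67 and 4.196 FPKM in BAT and 54.8, 49.6 and 52.7 in eWAT, a log2 difference of -3.21 (standard error 0.27 and adjusted p = 2.02e-05). Atp5g3 was at 735, 662 and 623 FPKM in BAT and 1746, 1827 and 1631 in eWAT, and Atp5g2, which was higher (1.17), at 726, 799 and 707 FPKM in BAT and 408, 327 and 267 in eWAT. All 3 genes encode the same mature protein, and together they reached 1465, 1468 and 1334 FPKM in BAT and 2209, 2204 and 1951 in eWAT. This sum was lower in every BAT library than in any eWAT library. Atp5g2 made up 49.6, 54.4 and 53% of it in BAT and 18.5, 14.8 and 13.7% in eWAT. These genes have related copies, and how reads shared between copies were assigned is not given in the sources used here. The third lower gene was Atpif1, the inhibitor that blocks the enzyme from running backwards, at 28.2, 32.02 and 20.5 FPKM in BAT and 95.4, 69.5 and 44.5 in eWAT (-1.30, adjusted p = 0.0256). The call of Atpif1 was lost when BAT 1, BAT 3, eWAT 1 or eWAT 2 was left out.

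**Figure D2:**
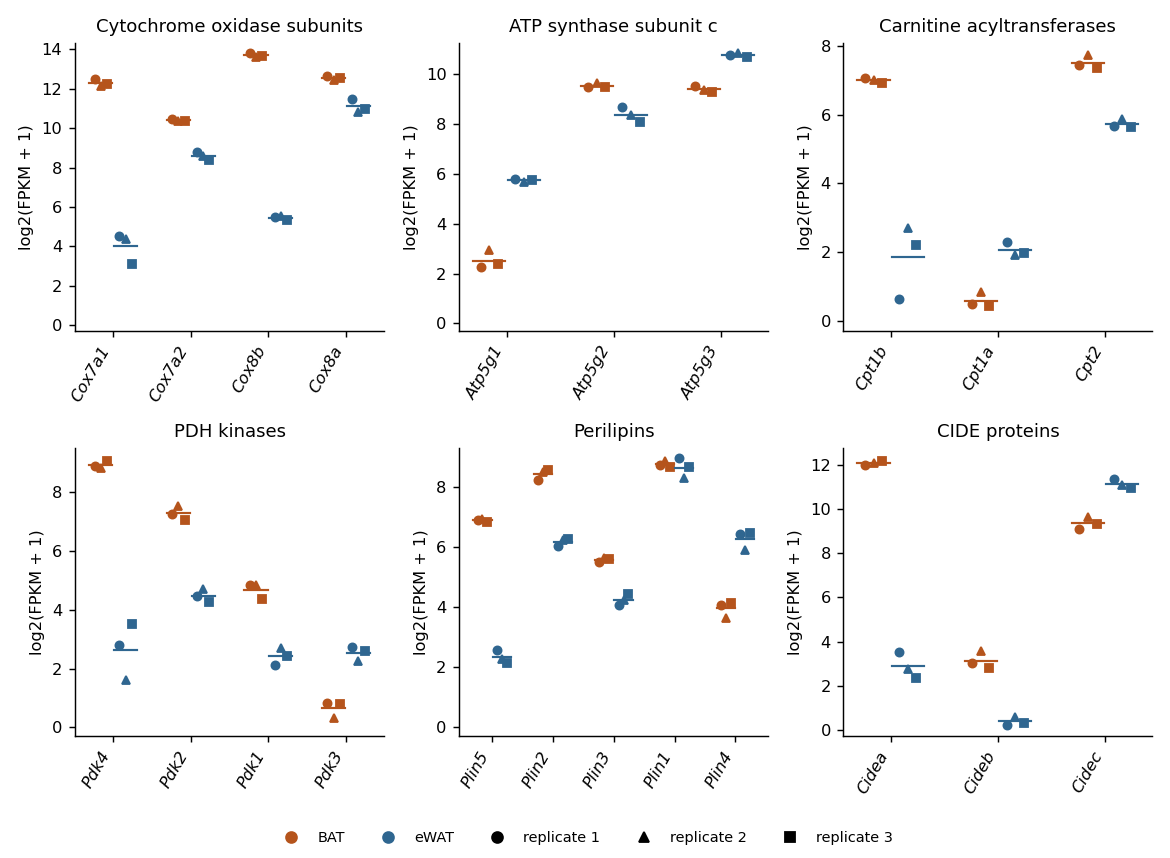
Values of 6 gene families as log2(FPKM + 1) on the vertical axis, with 1 point per library (circle, triangle and square for replicates 1, 2 and 3), brown for BAT and blue for eWAT, and a line for the group mean (n = 3). Within the subunit c, carnitine acyltransferase, kinase, perilipin and CIDE families some members are higher and others lower in BAT, as with Cpt1b and Cpt1a.

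Fatty acid oxidation had 25 of 26 genes higher in BAT and 1 lower (median 2.46; 20 higher without eWAT 2 and 3). Cpt1b, the muscle form of the enzyme that admits long-chain fatty acids to mitochondria (chromosome 15, 89246836 to 89256294), was at 135, 128 and 121 FPKM in BAT and 0.557, 5.52 and 3.61 in eWAT. The gene that was lower was its liver form, Cpt1a, at 0.391, 0.769 and 0.337 FPKM in BAT and 3.91, 2.74 and 2.91 in eWAT (-1.48, adjusted p = 0.000626). Cpt1b made up 99.7, 99.4 and 99.7% of the pair in BAT and 12.5, 66.8 and 55.3% in eWAT, where eWAT 1 stood far below eWAT 2 and 3. Further large differences were in the thiolase Acaa2 (4.47), the electron transfer flavoprotein dehydrogenase Etfdh (4.05) and the carnitine carrier Slc25a20 (4.002).

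In the TCA cycle and at pyruvate entry, 26 of 31 genes were higher and 2 lower (22 and 1 without eWAT 2 and 3). After Pdk4 (6.29) came Suclg1 (4.75) and Sucla2 (4.08), parts of succinyl-CoA ligase, and Idh3a (3.89) of isocitrate dehydrogenase. The kinases that switch off pyruvate dehydrogenase did not all go the same way. Together they reached 662, 662 and 690.4 FPKM in BAT and 36.1, 36.8 and 37.9 in eWAT. Pdk2 was higher in BAT, at 154, 184 and 132 FPKM in BAT and 21, 25.4 and 18.1 in eWAT, as was Pdk1, at 28.1, 27.5 and 19.7 FPKM in BAT and 3.38, 5.44 and 4.37 in eWAT. Pdk3 was lower, at 0.798, 0.255 and 0.744 FPKM in BAT and 5.66, 3.83 and 5.09 in eWAT (-1.88, adjusted p = 0.000158), and so was the mitochondrial malic enzyme Me2 (-0.63, adjusted p = 0.0458). Pdk4 made up 72.3, 68 and 77.9% of the 4 kinases in BAT and 16.7, 5.59 and 27.3% in eWAT, while Pdk2 was the most abundant of them in each eWAT library. The call of Me2 was lost when BAT 1, BAT 2, BAT 3, eWAT 2, eWAT 3 or iWAT 3 was left out.

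Genes that build and run mitochondria were higher in BAT in many cases. Of 60 mitochondrial ribosomal proteins, 39 were higher and none was lower. Without eWAT 2 and 3 8 were called, in a fit with fewer samples in which the higher calls over all genes fell from 2094 to 966. For 1 of the 39, eWAT 1 was nearer to BAT than to eWAT 2 and 3. The largest were Mrps36 (3.42), which also works as a part of the 2-oxoglutarate dehydrogenase complex, Mrpl34 (3.19), Mrps2 (2.40) and Mrpl15 (2.26). Protein import had 26 of 31 higher (12 without eWAT 2 and 3), led by Grpel1 (2.74), Timm8a1 (2.24), Timm44 (2.16) and Timm9 (1.996). Of the genes of mitochondrial shape, 16 of 22 were higher (12 without eWAT 2 and 3), led by the cristae proteins Chchd10 and Apoo (3.41), the fission protein Mtfp1 (3.24) and Smcr7 (2.27). Chchd10 was at 2906, 2781 and 2633 FPKM in BAT and 75.3, 115 and 128 in eWAT. Assembly factors of complexes I and IV had 22 of 33 higher, led by Lyrm7 (3.08), Ndufaf4 (2.47), 6330578E17Rik (2.13) and Cox17 (2.12). Maintenance of mitochondrial DNA and RNA had 13 of 23, with the transcription factor Tfb2m at 2.79, Fastk at 1.498, 1110002N22Rik at 1.44 and Hsd17b10 at 1.34. The call of Hsd17b10 was lost when BAT 1, BAT 2, BAT 3, eWAT 2 or eWAT 3 was left out.

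Synthesis of coenzyme Q, heme and iron-sulfur clusters had 21 of 29 genes higher and none lower. Adck3, needed to make coenzyme Q, led with 217, 194 and 200.1 FPKM in BAT and 5.6, 5.34 and 4.38 in eWAT, followed by Coq10a (3.32), Coq6 (2.47) and Coq5 (2.33). Mitochondrial carriers had 20 of 35 higher and 3 lower. Besides Slc25a20, the coenzyme A carrier Slc25a42 (3.68) and Slc25a34 (2.69) were higher. The dicarboxylate carrier Slc25a10 (-2.598), Slc25a25 (-1.41) and Slc25a29 (-1.18) were lower. Branched-chain amino acid breakdown had 13 of 19 higher, led by Bckdha (1.94), Hibch (1.86), Hibadh (1.78) and Pcca (1.74). Its first enzyme, the aminotransferase Bcat2, was lower, at 91.6, 223 and 124 FPKM in BAT and 354, 269 and 280.3 in eWAT (-1.13, adjusted p = 0.0302). Peroxisome genes had 20 of 36 higher and 2 lower (5 and 1 without eWAT 2 and 3). Ehhadh (2.47), Abcd3 (2.197), Phyh (1.92) and Eci2 (1.78) were highest against eWAT. Abcd2, a peroxisomal importer of very-long-chain acyl-CoA, was at 7.66, 11.5 and 10.5 FPKM in BAT and 55.1, 48.98 and 59.02 in eWAT (-2.36), and Far1 was the other lower gene (-1.24). The calls of Ehhadh (without BAT 2), Slc25a29 (without BAT 3), Bcat2 (without BAT 1, BAT 3, eWAT 1, eWAT 2 or eWAT 3) and Far1 (without BAT 1, BAT 2, BAT 3, eWAT 2, eWAT 3 or iWAT 3) were lost with 1 such library left out.

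**Figure D3:**
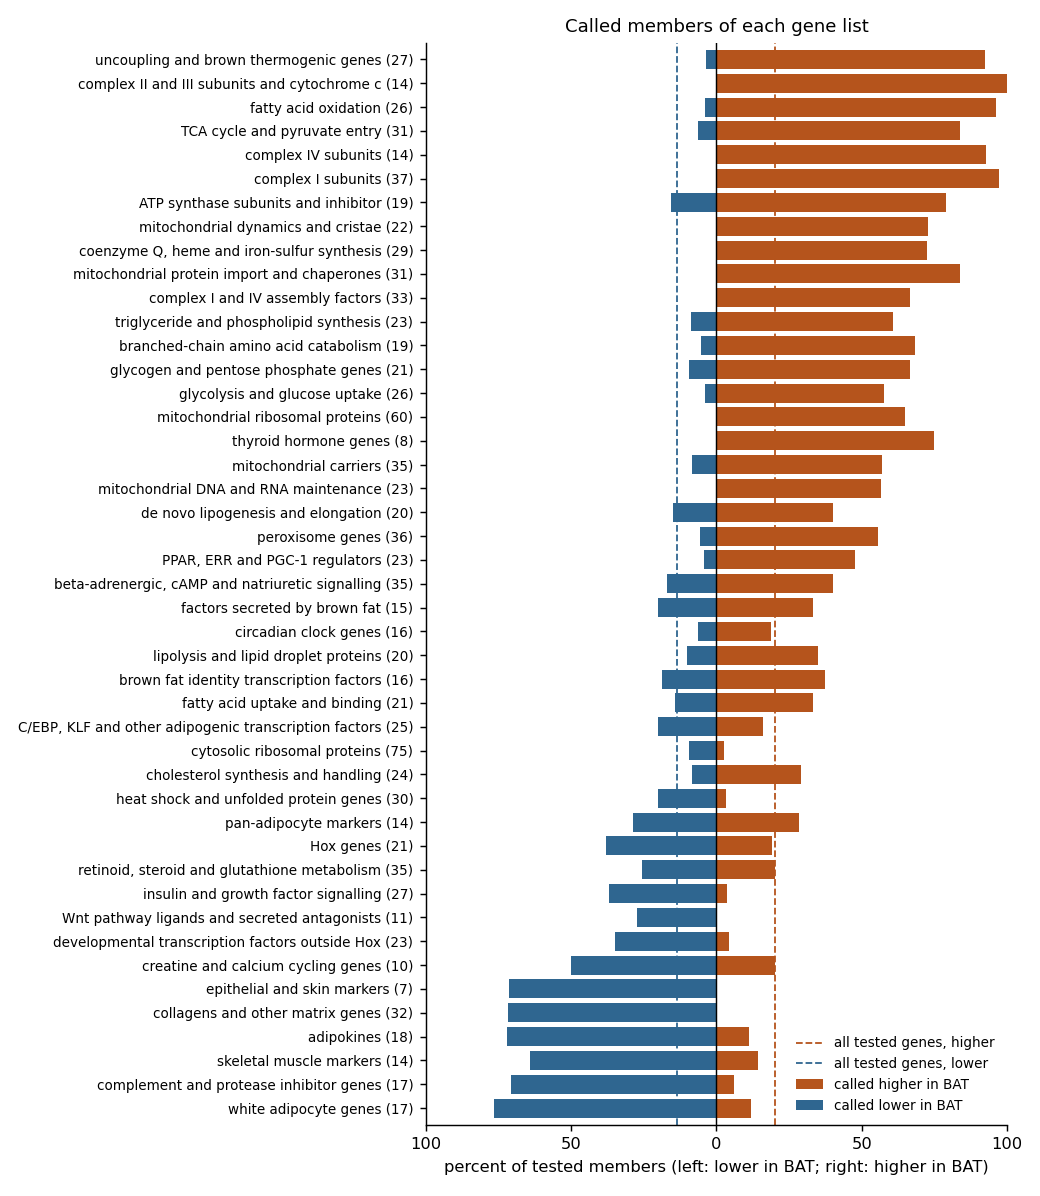
Percent of the tested members of each gene list called higher in BAT (bars to the right) or lower in BAT (bars to the left), ordered by median log2 difference, with the number of tested members in parentheses and only lists with at least 7. Dashed lines mark the 20.2% and 13.5% of all tested genes; all 14 genes of complexes II and III with cytochrome c are higher, and 13 of 17 white adipocyte genes are lower.

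Genes listed for fatty acid uptake and binding differed in direction: 7 of 21 were higher, 3 were lower and the rest were not called. This is 33.3% higher and 14.3% lower, beside 20.2% and 13.5% of all tested genes. Besides Fabp3 and Slc27a2, the acyl-CoA synthetase Acsl5 (2.53) and the protein-coding gene listed as Gm6484 (2.43) belonged to the higher ones. Fabp4, the main adipocyte carrier, was at 21769, 26122 and 23457 FPKM in BAT and 52538, 47271 and 36306 in eWAT (-0.92, adjusted p = 0.0187). Quantile normalization, which ties it as the most abundant gene of every library, left it no difference. Cav1 (-1.32), which builds caveolae, and the lipoprotein receptor Lrp1 (-1.25) were also lower. Fabp5 was at 115, 89.98 and 77.5 FPKM in BAT and 135, 109 and 109 in eWAT, Slc27a1 at 39.4, 68.1 and 27.7 FPKM in BAT and 39.8, 43.9 and 38.4 in eWAT and Slc27a4 at 7.62, 7.28 and 7.99 FPKM in BAT and 6.899, 5.298 and 7.53 in eWAT, and none of these 3 was called. Fabp1, Fabp7, Slc27a3 and Slc27a5 did not reach the test. Prkcdbp, the caveolar coat protein cavin-3, was among the 12 largest differences downward, at 1.56, 7.73 and 9.19 FPKM in BAT and 462, 454 and 504 in eWAT (-6.28). The calls of Cav1 (without BAT 1, BAT 2 or eWAT 3), Lrp1 (without BAT 1, BAT 3 or eWAT 3) and Fabp4 (without BAT 1, BAT 3, eWAT 1 or eWAT 2) were lost with 1 such library left out.

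Genes of lipid droplet proteins differed in direction within the CIDE and perilipin families. Cidea held 88, 84.4 and 87.9% of the summed FPKM of the 3 CIDE genes in BAT and 0.396, 0.26 and 0.198% in eWAT. Cidec, which promotes large droplets in white fat, was at 549, 814 and 636 FPKM in BAT and 2639, 2212 and 2026 in eWAT (-1.79, adjusted p = 0.000637), and Cideb at 7.04, 10.7 and 5.84 FPKM in BAT and 0.174, 0.489 and 0.236 in eWAT (2.74, adjusted p = 1.76e-05). Of the perilipins, Plin5, which ties droplets to mitochondria, was at 119, 120.3 and 112 FPKM in BAT and 4.996, 3.77 and 3.37 in eWAT (4.56). Plin2 was at 298, 359.6 and 373 FPKM in BAT and 63.99, 73.9 and 75.6 in eWAT and Plin3 at 43.9, 48.1 and 47.5 FPKM in BAT and 15.7, 17.8 and 20.5 in eWAT, both higher in BAT. Plin4 was at 15.8, 11.6 and 16.8 FPKM in BAT and 85.6, 58.97 and 87.5 in eWAT, lower in BAT (-2.31, adjusted p = 0.000675). Plin1, the perilipin that guards lipolysis in both cell types, overlapped at 420.0, 459 and 407 FPKM in BAT and 495, 312 and 401 in eWAT and held 46.9, 46 and 42.6% of the family in BAT and 74.4, 66.9 and 68.2% in eWAT. The lipase Pnpla2 was higher (1.91, adjusted p = 0.00339). In all, 7 of 20 droplet and lipolysis genes were higher and 2 lower. These are 35% and 10%, beside 20.2% and 13.5% of all tested genes.

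Of 20 genes that make and lengthen fatty acids, 8 were higher and 3 lower. These are 40% and 15%, beside 20.2% and 13.5% of all tested genes. Elovl3 and Elovl6 (3.81), elongases of saturated chains, led, with the carboxylase Acacb (2.44) and the synthase Fasn, at 399, 305 and 220.5 FPKM in BAT and 38.01, 94.3 and 68.96 in eWAT (2.24, adjusted p = 0.01). Fads1, a desaturase of polyunsaturated fatty acids, and its family member Fads3 went the other way. Fads3 was at 1.31, 1.67 and 2.46 FPKM in BAT and 57.3, 49.3 and 52.8 in eWAT (-4.29) and Fads1 at 0.811, 1.48 and 1.497 FPKM in BAT and 22.7, 20.9 and 20.9 in eWAT (-3.33). Elovl1 was lower as well, at 1.205, 1.16 and 0.817 FPKM in BAT and 11.2, 5.17 and 9.69 in eWAT. For these 3 genes eWAT 1 was the highest eWAT library. Triglyceride and phospholipid synthesis had 14 of 23 genes higher and 2 lower (6 and 2 without eWAT 2 and 3). Gpd1, which makes glycerol 3-phosphate, was at 1111, 1052 and 1009.8 FPKM in BAT and 49.6, 77.9 and 64.2 in eWAT (4.05), and its mitochondrial partner Gpd2 at 67.3, 55.2 and 58.6 FPKM in BAT and 3.56, 4.92 and 4.54 in eWAT (3.53). The acyltransferase Agpat2, lost in congenital lipodystrophy, was higher (3.52), as were glycerol kinase, listed as Gyk (3.30), and Pck1, which makes glycerol precursors (1.45, adjusted p = 0.00639). Agpat9, at 3.89, 7.64 and 10.1 FPKM in BAT and 59.7, 61.5 and 52.4 in eWAT, and Mogat1, at 7.48, 12.3 and 8.67 FPKM in BAT and 47.6, 35.5 and 38.8 in eWAT, were lower.

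Glucose genes were higher in BAT at many steps, with 15 of 26 glycolysis and uptake genes higher and 1 lower (11 and 1 without eWAT 2 and 3). The insulin-responsive transporter Slc2a4 was at 120.1, 97.3 and 119.8 FPKM in BAT and 35.98, 47.8 and 41.2 in eWAT (1.41, adjusted p = 0.00417). The lower gene was the neuronal transporter Slc2a3, at 0.287, 0.0971 and 0.242 FPKM in BAT and 3.44, 3.405 and 1.84 in eWAT. Enolase Eno1 differed by 4.74, lactate dehydrogenase Ldhb by 3.42, phosphofructokinase Pfkl by 2.79 and the monocarboxylate transporter Slc16a1 by 2.74. Ldhb, whose enzyme favours lactate use, held 39.8, 48.2 and 40.8% of Ldha and Ldhb in BAT and 10.2, 9.73 and 8.22% in eWAT. Of the glycogen and pentose phosphate genes, 14 of 21 were higher and 2 lower. Leading genes were Ppp1r3b (4.01) and Ppp1r3d (2.55), which bring phosphatase 1 to glycogen, the liver-type synthase Gys2 and the branching enzyme Gbe1 (2.35). Gys2 was at 12.1, 19.5 and 11.2 FPKM in BAT and 0.114, 1.88 and 0.321 in eWAT (3.20). Of the phosphorylases, which break glycogen down, the brain-type phosphorylase Pygb was lower, at 18.9, 17.3 and 19.6 FPKM in BAT and 56.8, 75.8 and 79.6 in eWAT, and the liver-type Pygl, at 148, 122 and 116 FPKM in BAT and 41.7, 46.9 and 48.3 in eWAT, made up 88.6, 87.6 and 85.4% of the 3 phosphorylases in BAT and 42.3, 35.7 and 35.9% in eWAT. H6pd was the other lower gene (-1.27). The call of H6pd was lost when BAT 1, BAT 3 or eWAT 3 was left out.

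Adrenergic and cyclic AMP genes split by subtype. Of 35 tested, 14 were higher and 6 lower in BAT (11 and 5 without eWAT 2 and 3). Of all 35, 40% were higher and 17.1% lower, beside 20.2% and 13.5% of all tested genes. Among receptors, Adrb1 was higher, at 24.7, 33.2 and 11.6 FPKM in BAT and 1.78, 2.66 and 3.32 in eWAT (2.66), while Adrb3 was lower. The alpha-1 receptor Adra1a differed by 2.52. Of the cyclases that make cyclic AMP, Adcy3 was at 8.16, 10.7 and 8.53 FPKM in BAT and 0.198, 1.27 and 1.45 in eWAT and Adcy5 at 0.9899, 0.889 and 1.67 FPKM in BAT and 17.8, 14.7 and 24.3 in eWAT, higher and lower in BAT, with no overlap. In BAT 1 to 3, Adcy3 held 26.2, 32.8 and 29.1% and Adcy5 3.18, 2.73 and 5.69% of the summed FPKM of 4 cyclases. Most of that sum in BAT came from cyclases not named here. The phosphodiesterases Pde4d (3.24) and Pde8a (2.85), which break cyclic AMP down, were among the 4 largest differences upward. Lower in BAT were the succinate receptor Sucnr1, at 1.59, 2.25 and 1.599 FPKM in BAT and 56.2, 39.6 and 53.5 in eWAT (-4.17), and the natriuretic peptide clearance receptor Npr3, at 5.62, 3.52 and 7.305 FPKM in BAT and 80.4, 54.6 and 56.9 in eWAT (-3.35). The signalling natriuretic receptor Npr1 was higher, at 5.05, 4.22 and 7.14 FPKM in BAT and 0.807, 0.688 and 1.11 in eWAT (1.77). The inhibitory G protein gene Gnai1 (-1.89) was lower. The call of Adrb3 was lost when any of the 6 BAT and eWAT libraries was left out.

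Thyroid hormone genes had 6 of 8 higher and none lower (2 without eWAT 2 and 3, Dio2 among them). The receptors Thrb (0.93) and Thra (0.78), the partner receptor Rxrg (1.35) and the hormone-responsive lipogenic gene Thrsp (1.14) followed Dio2. The amino acid transporter Slc16a10 and the nuclear receptor Nr1d1 were not called, and Dio1 and Dio3 did not reach the test. Insulin and growth factor genes leaned the other way, with 1 of 27 higher, the kinase Akt2 (0.94, adjusted p = 0.00775), and 10 lower (5 without eWAT 2 and 3). Igfbp4, which binds insulin-like growth factors, was at 9.14, 10.9 and 14.3 FPKM in BAT and 157, 169 and 116 in eWAT (-3.57). The adipogenic growth factor Fgf10 (-2.94), Igfbp5 (-2.43) and the adaptor Grb10 (-2.04) came next. The calls of Rxrg (without BAT 1, BAT 2, BAT 3 or eWAT 2), Thrsp (without any of the 6 BAT and eWAT libraries) and Thra (without BAT 1, BAT 2, BAT 3, eWAT 1, eWAT 2 or iWAT 3) were lost with 1 such library left out.

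Among regulators of mitochondrial and fat genes, 11 of 23 were higher and 1 was lower. Ppara, the nuclear receptor of fatty acid oxidation, was at 18.6, 18.5 and 17.96 FPKM in BAT and 0.612, 1.21 and 0.739 in eWAT (3.396). Sirt3 (3.16), the mitochondrial deacetylase, Tfb2m and 2310042D19Rik (2.36) were next. Pparg, the master regulator of fat cell formation, was at 113, 82.3 and 136 FPKM in BAT and 104, 61.2 and 87.2 in eWAT and was not called (adjusted p = 0.366). The lower gene was Rxra (-1.69, adjusted p = 0.000708), the general partner of these receptors, at 9.92, 10.6 and 8.86 FPKM in BAT and 39.5, 29.01 and 33.8 in eWAT. Of the transcription factors tied to brown fat identity, 6 of 16 were higher and 3 lower. These are 37.5% and 18.75%, beside 20.2% and 13.5% of all tested genes, and the median difference of the list was 0.08. The list summed to 137, 120 and 114 FPKM in BAT 1 to 3 and 73.8, 192 and 180 in eWAT 1 to 3. Irf4 (2.73), Ebf3 (2.53) and Ebf2 were highest against eWAT, with Ebf2, which primes brown fat genes, at 5.24, 4.66 and 6.22 FPKM in BAT and 0.133, 0.534 and 0.369 in eWAT. Prdm16 was at 1.88, 1.198 and 1.099 FPKM in BAT and 0.00754, 0.112 and 0.222 in eWAT (1.09, adjusted p = 0.00168). Zic1, a marker of classical brown fat precursors, was at 3.61, 2.75 and 2.85 FPKM in BAT and 0.807, 5.93 and 3.55 in eWAT and was not called, and Lhx8 did not reach the test. The 3 lower genes Nfix, Foxc2 and Foxp1 had 26.3, 1.82 and 1.504 FPKM in eWAT 1, nearer to BAT than to eWAT 2 and 3. None of them was called without eWAT 2 and 3. The calls of Foxc2 and Foxp1 (without BAT 1, BAT 2, BAT 3, eWAT 2 or eWAT 3) and Nfix (without BAT 1, BAT 2, BAT 3, eWAT 2, eWAT 3 or iWAT 3) were lost with 1 such library left out.

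Adipogenic factors of the C/EBP and KLF families had 4 of 25 members higher and 5 lower, or 16% and 20% beside 20.2% and 13.5% of all tested genes. Cebpb, which acts early in fat cell formation and in cold, was at 1186, 1350.0 and 2099.7 FPKM in BAT and 228, 259 and 259.8 in eWAT (2.59). Its relative Cebpd was lower, at 1.87, 1.51 and 2.39 FPKM in BAT and 8.71, 7.05 and 33.9 in eWAT (-2.27). The oxysterol receptor Nr1h2 (2.03), Klf3 (1.15) and Klf9 (1.02) were higher. Id3, an inhibitor of helix-loop-helix factors, was lower at 34.1, 16.1 and 11.6 FPKM in BAT and 229.9, 216 and 79.01 in eWAT, with Klf6 (-1.78) and Id4 (-1.56). The calls of Klf9 (without BAT 2 or BAT 3), Cebpd and Klf3 (without BAT 2 or eWAT 3) and Id4 (without BAT 2, BAT 3, eWAT 2 or eWAT 3) were lost with 1 such library left out.

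Promoter sequences were searched for 4 motifs on both strands, in windows from 250 bases before to 50 bases after each start site (RefSeq, GRCm38.p6), with 10504 windows found for 8233 of the 10374 tested genes (8210 RefSeq genes, since a few matched more than 1 symbol of the table and count once for each). The cyclic AMP response element TGACGTCA was in 3.22% of promoters of genes higher in BAT, 1.88% of those lower and 3.18% of all tested. Over all promoters given, the share was 1.79%. Of the 3 motifs with fewer matches, the estrogen-related receptor motif TCAAGGTCA was in 0.368%, 0.361% and 0.276%, and 0.423% over all promoters. The direct repeat bound by PPAR and RXR, 2 copies of AGGTCA with 1 base between them, was in 0.092%, 0% and 0.0476%, and 0.0396% over all. The C/EBP motif TTGCGCAA was in 0.138%, 0.144% and 0.276%, and 0.183% over all. These shares are descriptions, and a match is no proof of binding. Matches are shown in capitals for genes described here, Dio2, Cycs and Ogdh with the cyclic AMP element, Isca1 (iron-sulfur cluster assembly) with the direct repeat and Lep (leptin, lower in BAT) with the C/EBP motif:
Dio2 (chr12:90739086-90739173, minus strand): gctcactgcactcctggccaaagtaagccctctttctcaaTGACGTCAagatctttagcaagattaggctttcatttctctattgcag
Cycs (chr6:50566691-50566778, minus strand): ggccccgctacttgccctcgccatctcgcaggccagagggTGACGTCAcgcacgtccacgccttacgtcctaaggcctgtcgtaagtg
Ogdh (chr11:6291506-6291593, plus strand): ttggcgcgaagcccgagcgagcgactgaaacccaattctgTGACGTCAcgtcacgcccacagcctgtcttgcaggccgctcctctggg
Isca1 (chr13:59769871-59769963, minus strand): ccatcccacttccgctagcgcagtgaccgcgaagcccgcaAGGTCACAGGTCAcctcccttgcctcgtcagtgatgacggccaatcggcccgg
Lep (chr6:29060126-29060213, plus strand): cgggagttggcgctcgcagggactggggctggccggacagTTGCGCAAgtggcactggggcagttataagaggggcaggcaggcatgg
The first 4 genes were higher in BAT, Ogdh of the TCA cycle by 2.82 and Isca1 by 1.84 log2 units. The matches began 95, 169, 51, 134 and 55 bases before the start sites, in the order shown.

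Genes of white adipocytes were lower in BAT. The list had 17 tested genes, of which 13 were lower and 2 higher, with a median log2 difference of -2.75; 10 were lower without eWAT 2 and 3. Nnat, an imprinted gene for a membrane proteolipid, was at 4.17, 4.61 and 36.1 FPKM in BAT 1 to 3 and 2605, 1504 and 2071 FPKM in eWAT 1 to 3, a log2 difference of -7.62 (standard error 0.78 and adjusted p = 5.48e-05). BAT 3 was several times higher than BAT 1 and 2 and still below all eWAT values. Angiotensinogen, Agt, was at 0.252, 0.483 and 1.05 FPKM in BAT and 153, 84.1 and 134 in eWAT (-6.27). The synuclein of white fat and nerve, Sncg, was at 4.92, 3.505 and 12.4 FPKM in BAT and 596, 479 and 348 in eWAT, and the secreted inhibitor 1100001G20Rik at 0.752, 2.19 and 8.65 FPKM in BAT and 343, 211 and 319 in eWAT. Leptin, Lep, which reports fat stores to the brain, was at 1.45, 2.95 and 4.13 FPKM in BAT and 178, 144 and 158 in eWAT (-5.45), and resistin, Retn, at 91.98, 185 and 215 FPKM in BAT and 7279, 4730.5 and 5622 in eWAT (-5.22). For each of these 6 genes eWAT 1 was the highest eWAT library. The amino acid transporter Slc7a10, a surface marker of white adipocytes, was at 0.923, 5.48 and 3.23 FPKM in BAT and 82.2, 80.3 and 68.2 in eWAT (-4.37), and the imprinted gene Mest, which tracks fat expansion, at 10.8, 4.89 and 7.097 FPKM in BAT and 54.9, 40.5 and 63.7 in eWAT (-2.69, adjusted p = 0.00018). The 2 members that were higher were Dpep1 (1.65) and Pcolce2 (1.21). Tcf21, a marker of visceral fat precursors, did not reach the test.

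Of 18 tested adipokines, 13 were lower and 2 higher. The chemoattractant chemerin, Rarres2, was at 20.5, 26.6 and 33.6 FPKM in BAT and 499, 353 and 495 in eWAT (-4.02). Adiponectin, Adipoq, made by both kinds of adipocyte, was at 789, 1125 and 918 FPKM in BAT and 2711, 1856 and 2932 in eWAT and was lower by a smaller amount (-1.39, adjusted p = 0.0456). The higher ones were apelin, Apln, at 3.23, 2.95 and 3.74 FPKM in BAT and 0.252, 0.146 and 0.3602 in eWAT, and Nampt, the NAD-making enzyme, at 57.1, 63.3 and 58.7 FPKM in BAT and 15.2, 27.9 and 28.3 in eWAT. Factors that brown fat is known to secrete had 5 of 15 higher and 3 lower. These are 33.3% and 20%, beside 20.2% and 13.5% of all tested genes. After S100b, the hydrolase Pm20d1, which joins amino acids to fatty acids, reached 4.63, 3.43 and 3.95 FPKM in BAT and 0.0541, 0.132 and 0 in eWAT, and the nerve-directed ligand Nrg4 at 57.04, 57.2 and 52.1 FPKM in BAT and 17.9, 14.5 and 18.2 in eWAT. Vegfb (1.098) was the fourth. Slit3, an axon guidance factor, was lower (-3.38), with Igf1 (-1.95) and Fgf13 (-0.78). The calls of Fgf13 (without BAT 1, BAT 2, BAT 3 or eWAT 2), Igf1 (without BAT 1, BAT 2, BAT 3 or eWAT 3), Vegfb (without BAT 1, BAT 2, BAT 3, eWAT 2 or eWAT 3) and Adipoq (without any of the 6 BAT and eWAT libraries or iWAT 3) were lost with 1 such library left out.

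Complement and protease inhibitor genes had 12 of 17 lower and 1 higher (8 lower without eWAT 2 and 3). The early classical components were lower together, with C4b at 1.15, 2.54 and 3.59 FPKM in BAT and 104, 62.5 and 119 in eWAT, C2 at 0.438, 1.32 and 1.897 FPKM in BAT and 59.9, 53.2 and 65.3 in eWAT, C1s at -3.75 and C1ra at -3.65 log2 units. The inhibitors Serpina3c (-4.34) and Serpina3n (-3.78) belong to a family of close copies, as C4b does, and their split between copies is uncertain. Adipsin, Cfd, the adipocyte protease of the alternative pathway, was at 2945, 7281 and 4718 FPKM in BAT and 38458, 26618 and 29978 in eWAT (-2.75). The exception was C3, the central component, at 68.2, 122 and 67.8 FPKM in BAT and 21.5, 27.6 and 37.1 in eWAT, higher in BAT (1.53, adjusted p = 0.00481).

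Matrix genes were lower in 23 of 32 cases and higher in none, with a median of -1.77; 19 were lower without eWAT 2 and 3. The metalloproteinase inhibitor Timp4 was at 1.62, 1.62 and 3.103 FPKM in BAT and 269, 383 and 322 in eWAT (-6.73). Other large differences were in the proteoglycan decorin, Dcn, at 1.74, 1.08 and 2.33 FPKM in BAT and 96.99, 25.01 and 39.5 in eWAT, the protease Adamts5 (-4.11) and the basement membrane linker Nid1, at 0.541, 0.834 and 1.48 FPKM in BAT and 26.2, 18.4 and 31.4 in eWAT. The summed FPKM of the list was 211, 209 and 237 FPKM in BAT 1 to 3 and 1891, 1269 and 1790.2 in eWAT 1 to 3, on average 7.54 times as high in eWAT. Stromal progenitor markers moved with this list: their 8 genes summed to 8.803, 9.31 and 18.3 FPKM in BAT 1 to 3 and 72.3, 43.9 and 44.8 in eWAT 1 to 3, 4.42 times as high in eWAT on average, and Dpt, itself a matrix protein, made up most of the eWAT sums. The defining progenitor gene Pdgfra was near 0, at 0.135, 0.116 and 0.121 FPKM in BAT and 0.137, 0.403 and 0.223 in eWAT. The part of such cells in the matrix differences was not tested. Further membrane and secreted proteins among the 12 largest differences downward were Anxa1, an annexin of inflammation control, at 0.404, 0.847 and 1.55 FPKM in BAT and 131, 130.3 and 124 in eWAT, Ccdc80 at 5.35, 5.02 and 9.702 FPKM in BAT and 330.2, 275 and 334 in eWAT and Emp1 at 1.62, 0.821 and 2.15 FPKM in BAT and 210.1, 25.4 and 191 in eWAT. The eWAT values of Emp1 were uneven, but all were above BAT.

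Of 35 genes of retinoid, steroid and glutathione metabolism, 7 were higher and 9 lower. These are 20% and 25.7%, beside 20.2% and 13.5% of all tested genes. The retinaldehyde dehydrogenase Aldh1a1, which makes retinoic acid, was at 0.6603, 0.904 and 1.54 FPKM in BAT and 87.7, 65.1 and 81.9 in eWAT (-5.29). The cytochromes P450 Cyp2f2, at 0.516, 3.08 and 5.05 FPKM in BAT and 85.7, 197 and 83.05 in eWAT, and Cyp2e1, at 55.3, 254 and 106 FPKM in BAT and 2895, 2245 and 2258 in eWAT, and the glutathione transferase Gsta3 (-5.03) were lower too. Those higher in BAT included the mitochondrial superoxide dismutase Sod2, at 369.9, 361 and 379 FPKM in BAT and 47.97, 62.4 and 59.95 in eWAT (2.69), and mitochondrial thioredoxin, Txn2 (1.77). Extracellular glutathione peroxidase, Gpx3 (2.68), and Cyp4b1 (1.96) were the other large differences upward. The call of Cyp4b1 was lost when BAT 2, eWAT 1 or eWAT 2 was left out.

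Hox genes, which record position along the body axis, differed in direction with their paralog number. Of 21 tested, 4 were higher in BAT and 8 lower, or 19% and 38.1% beside 20.2% and 13.5% of all tested genes. The higher ones were of groups 3 to 5: Hoxa4 at 20.8, 17.3 and 11.8 FPKM in BAT and 1.27, 2.14 and 2.11 in eWAT (2.62), Hoxa5 at 35.8, 46.6 and 24.5 FPKM in BAT and 8.03, 9.63 and 6.14 in eWAT (2.01), Hoxa3 (1.51) and Hoxb3 (1.12). The lower ones were of groups 5 to 10. Hoxc8 was at 2.71, 2.58 and 1.24 FPKM in BAT and 27.5, 23.8 and 33.7 in eWAT (-3.23), Hoxc9 at 0.718, 0.222 and 0.165 FPKM in BAT and 10.3, 6.51 and 8.596 in eWAT (-2.79) and Hoxb7 at 0, 0.168 and 0.0561 FPKM in BAT and 3.26, 8.88 and 6.34 in eWAT (-2.66). Hoxb5 (-2.57) and Hoxb6 (-2.13) were lower too, and Hoxc6 (-1.002) and Hoxd8 (-0.796) by smaller amounts. Within group 5, Hoxa5 and Hoxb5 thus went opposite ways, and Hoxc5 was not called. Hoxc10 was at 4.202, 1.201 and 2.05 FPKM in BAT and 2.58, 15.8 and 15.3 in eWAT; its value in eWAT 1 lay inside the BAT range. Without eWAT 2 and 3, 3 were called higher and 4 lower. The calls of Hoxc6 (without BAT 3), Hoxd8 (without BAT 1, BAT 2 or eWAT 2) and Hoxc10 (without BAT 2, BAT 3, eWAT 2, eWAT 3, iWAT 1, iWAT 2 or iWAT 3) were lost with 1 such library left out.

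**Figure D4:**
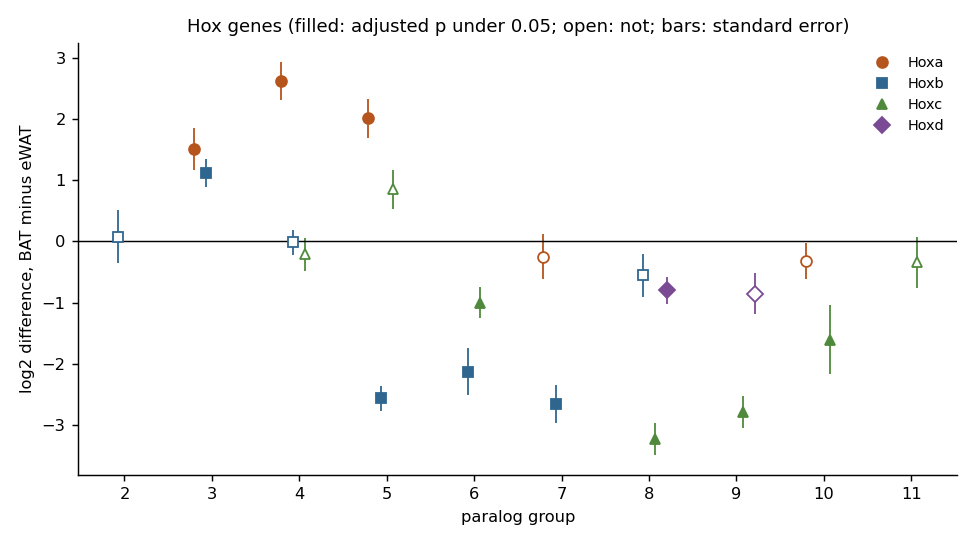
Log2 difference between BAT and eWAT (vertical axis) of the 21 tested Hox genes by paralog group (horizontal axis), with colour and shape for the cluster, filled symbols for an adjusted p under 0.05 and bars for the standard error. Called genes of groups 3 and 4 lie above 0, and those of groups 6 to 10 below it.

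Developmental transcription factors outside the Hox clusters had 1 of 23 higher and 8 lower (0 and 2 without eWAT 2 and 3). The largest differences downward were Irx6 (-1.898), Twist2 (-1.65), Irx5 (-1.55) and Nr2f1 (-1.44). Irx5 was at 7.71, 2.54 and 4.72 FPKM in BAT and 6.46, 22.5 and 24.3 in eWAT, so that eWAT 1 was near BAT. Wt1, a gene of visceral fat and its mesothelium, stayed below 1 FPKM in all 6 libraries and was not tested. The calls of Irx6 (without BAT 2, eWAT 2 or eWAT 3) and Irx5 (without BAT 2, BAT 3, eWAT 2, eWAT 3 or iWAT 3) were lost with 1 such library left out.

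Adipocyte identity was checked against 14 genes that all adipocytes express, of which 4 were higher and 4 lower in BAT. This is 28.6% each way, beside 20.2% higher and 13.5% lower of all tested genes. Gpd1, Pnpla2, Slc2a4 and Aqp7 (1.35) were higher. Cidec, Adipoq, Adrb3 and Fabp4 were lower. Pparg, Plin1, the fatty acid transporter Cd36, the receptor Acvr1c and the lipases Lipe and Lpl were not called. The 14 genes summed to 27155, 32284 and 28863 FPKM in BAT 1 to 3 and 60957, 54046 and 44179 in eWAT 1 to 3, with Fabp4 the largest part.

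Markers of other cells moved with some of these results, and their part in them was not tested. Of 14 tested markers of skeletal muscle, 9 were lower in BAT and 2 higher. The list summed to 245, 153 and 197 FPKM in BAT 1 to 3 and 243, 1356 and 1147 in eWAT 1 to 3. In iWAT 1 to 3, which were shallow too, it summed to 2082, 2588 and 1885 FPKM. The muscle sums were thus high in the shallow libraries of the series and low in the deep ones, BAT 1 to 3 and eWAT 1. The part of depth in this difference was not tested. Pvalb, the parvalbumin of fast muscle, was at 0, 0 and 0.0842 FPKM in BAT and 0.631, 409 and 323 in eWAT, troponin Tnnc2 at 0.482, 1.13 and 0.738 FPKM in BAT and 0.893, 59.6 and 44.5 in eWAT, Tnnt3 at 0.362, 0.218 and 0 FPKM in BAT and 0.3696, 33.9 and 32.7 in eWAT and Tnni2 at 0.3496, 0.201 and 0.0902 FPKM in BAT and 0.285, 32.3 and 20.96 in eWAT. All 9 of the lower muscle genes had eWAT 1 nearer to BAT than to eWAT 2 and 3, and none was called without eWAT 2 and 3. The higher ones, Des (3.55) and Myl1 (1.43), were the exception. Tpm1, the tropomyosin among the 12 largest differences downward, was at 0, 0 and 102 FPKM in BAT and 129, 433 and 388 in eWAT, where a listed 0 can be a failed estimate. The calls of Myl1 (without BAT 3), Pvalb (without BAT 1, BAT 2, BAT 3, eWAT 2 or eWAT 3) and Tnnc2, Tnnt3 and Tnni2 (without BAT 1, BAT 2, BAT 3, eWAT 2, eWAT 3 or iWAT 3) were lost with 1 such library left out.

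Epithelial and skin markers were lower in 5 of 7: the basal keratins Krt5, at 19.9, 10.3 and 15.8 FPKM in BAT and 29.3, 87.3 and 79.7 in eWAT, Krt14, at 17.7, 7.96 and 11.9 FPKM in BAT and 21.2, 82.6 and 69.5 in eWAT, and Krt15 (-1.77), the desmosome gene Dsp (-1.73) and Trp63 (-1.13). The list summed to 57.9, 28.9 and 42.4 FPKM in BAT 1 to 3 and 73.4, 248 and 221 in eWAT 1 to 3. In iWAT 1 to 3 it summed to 184, 505 and 360 FPKM, so these sums were higher in the shallow libraries as well. No epithelial marker was called without eWAT 2 and 3. Krt8 and Krt10 were not called, and Krt18, Epcam and Cdh1 did not reach the test. The Schwann cell and neuron markers summed to 57.8, 25.01 and 38.3 FPKM in BAT 1 to 3 and 54.2, 202 and 178 in eWAT 1 to 3. In iWAT 1 to 3 these markers summed to 159, 421 and 280 FPKM, again higher in the shallow libraries. Of them, Tubb3 was at 51.6, 20.2 and 31.9 FPKM in BAT and 51.6, 193 and 173 in eWAT, lower in BAT, and Mbp at 5.39, 4.38 and 6.17 FPKM in BAT and 2.35, 7.31 and 4.51 in eWAT, while Sox10, Th, Dbh, Uchl1 and Snap25 did not reach the test. The smooth muscle and pericyte list had Des and Cspg4 (1.81) higher and Acta2, at 0.407, 0.228 and 0.363 FPKM in BAT and 9.52, 4.99 and 19.96 in eWAT, and Tagln (-0.96, adjusted p = 0.0488) lower. Myh11, Cnn1, Rgs5, Pdgfrb and Notch3 were not tested. The calls of Krt14, Krt15 and Tubb3 (without BAT 2, BAT 3, eWAT 2 or eWAT 3), Tagln (without BAT 1, BAT 2, BAT 3, eWAT 1 or eWAT 3) and Dsp (without BAT 2, BAT 3, eWAT 2, eWAT 3 or iWAT 3) were lost with 1 such library left out.

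Defining markers of blood vessels and immune cells were low in both depots. Of the endothelial genes only Cldn5, at 1.87, 1.55 and 1.45 FPKM in BAT and 7.85, 2.898 and 12.01 in eWAT, was called (-1.55, adjusted p = 0.0412). Egfl7 and Esam were not, and Pecam1, Cdh5, Kdr, Tek, Flt1, Emcn and Vwf did not reach the test, with Pecam1 at 0.386, 0.583 and 0.279 FPKM in BAT and 0.317, 0.836 and 1.16 in eWAT. Of the macrophage genes only Lyz2 was tested, at 0.181, 0.317 and 0.504 FPKM in BAT and 0.876, 1.81 and 3.75 in eWAT, lower in BAT. The endothelial list summed to 6.41, 9.05 and 6.498 FPKM in BAT 1 to 3 and 15.7, 8.33 and 25.1 in eWAT 1 to 3, and the macrophage list to 0.997, 0.661 and 0.876 FPKM in BAT 1 to 3 and 1.54, 2.06 and 5.45 in eWAT 1 to 3. The macrophage genes Cd68, Emr1, Csf1r, Cd163, Mrc1, Itgam, Cx3cr1, Ptprc and Fcgr1 had a value of at most 0.632 FPKM in any of the 6 libraries. No T and NK cell marker (Cd3d, Cd3e, Cd3g, Cd4, Cd8a, Nkg7, Klrb1c, Ncr1), B cell marker (Cd79a, Cd79b, Ms4a1, Pax5) or lymph node stroma marker (Ccl21a, Ccl19, Cxcl13, Cr2) reached the test. Neither did any marker of epididymis and testis, the organs next to the fat pad (Defb1, Crisp1, Lcn5, Rnase10, Prm1, Prm2, Tnp1, Ddx4, Spink8, Adam7). Of the mast cell genes, Kit was tested and not called, and Cpa3, Mcpt4, Cma1, Tpsb2 and Fcer1a were not tested. Among stromal progenitor genes Dpt was lower, at 3.21, 1.58 and 13.2 FPKM in BAT and 64.7, 32.7 and 34.4 in eWAT, Ly6a and Cd55 were not called, and Pdgfra, Dpp4, Pi16, Cd34 and Mfap5 did not reach the test. The mesothelial gene Krt19 was lower, at 1.01, 0.05602 and 0.163 FPKM in BAT and 1.52, 2.51 and 2.71 in eWAT. The other mesothelial genes Msln, Upk3b, Upk1b, Lrrn4, Wt1, Gpm6a and Bnc1 were not tested. The globins Hba-a1 and Hbb-b1 were not called, and Hbb-b2, Alas2 and Slc4a1 were not tested. The calls of Krt19 (without BAT 2 or BAT 3), Lyz2 (without BAT 1, BAT 2, BAT 3, eWAT 2 or eWAT 3) and Cldn5 (without BAT 1, BAT 2, BAT 3, eWAT 1, eWAT 3 or iWAT 2) were lost with 1 such library left out.

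Over all genes, eWAT 1 lay nearer to the BAT mean than to the mean of eWAT 2 and 3 for 313 of the 1398 genes lower in BAT (22.4%) and for 27 of the 2094 higher (1.29%). In the white adipocyte list this held for 1 of the 13 lower genes, in the complement list for none of 12, in the matrix list for 1 of 23 and in the Hox list for 1 of 8. It held for 5 of 8 lower developmental factors, 9 of 9 muscle markers and 4 of 5 epithelial markers.

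**Figure D5:**
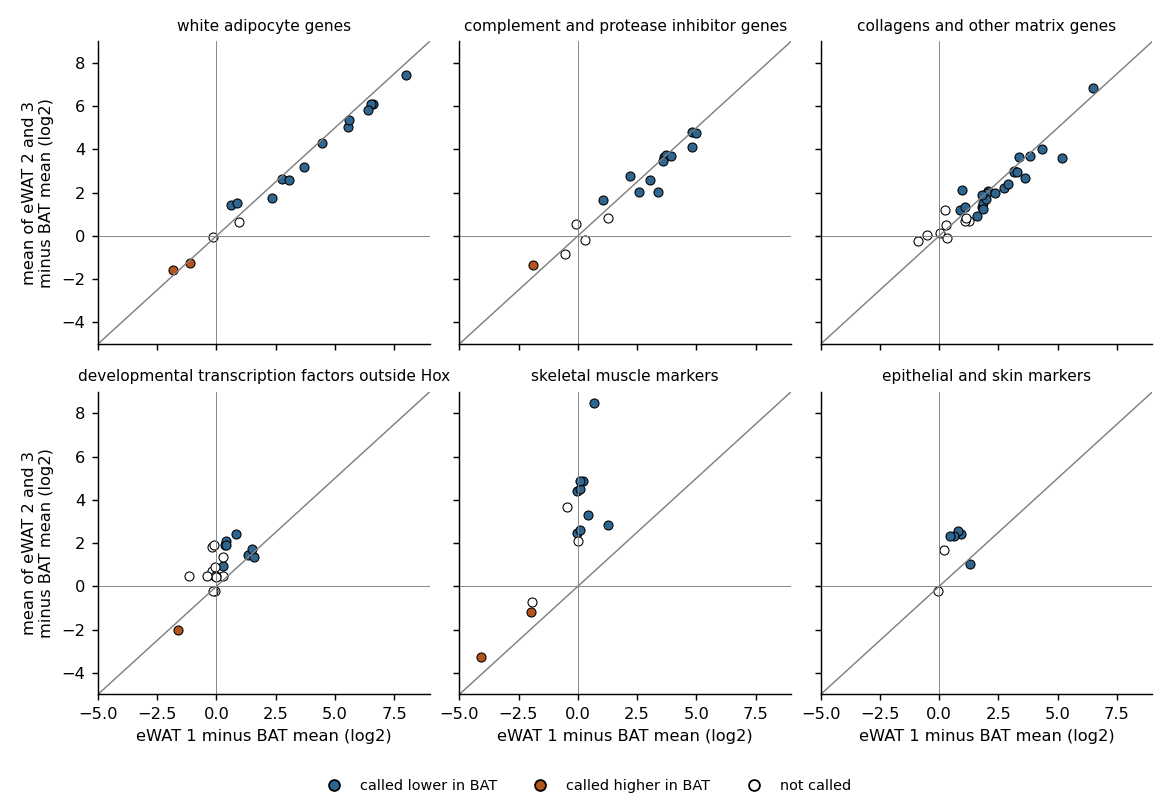
Difference from the BAT mean, on the log2(FPKM + 1) scale, of eWAT 1 (horizontal axis) and of the mean of eWAT 2 and 3 (vertical axis), 1 point per tested gene of 6 lists; the diagonal marks equal differences. White adipocyte, complement and matrix genes lie near the diagonal, while 9 called skeletal muscle markers lie near 0 for eWAT 1.

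The third depot, inguinal white fat, shares the fit and is given as values only, since comparisons with it use the same BAT or eWAT libraries. Ucp1 was at 2.24, 3.35 and 3.103 FPKM in iWAT 1 to 3, Cidea at 103, 95.1 and 17.2, Cox7a1 at 54.2, 30.2 and 18.5 and Cox8b at 367, 319 and 179.6. Nnat was at 1776, 291 and 872, Agt at 20.2, 0.736 and 9.61, Lep at 68.3, 24.6 and 58.6 and Retn at 3792, 1553 and 2587. Atp5g1 was at 35.5, 20.1 and 21.5, Hoxc8 at 12.5, 8.696 and 9.19 and Hoxa5 at 2.102, 1.04 and 0.611. The iWAT libraries had an estimated depth of 4.66, 3.47 and 2.92 M reads.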

How the data were processed

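Ribosome-bound RNA was sequenced in 9 libraries. The deposited values are FPKM per gene, made by the authors with TopHat and Cufflinks on mm9, per the submitters' processing notes; versions, strand setting and annotation are not given in the sources used here. Columns were matched to samples by title. For repeated symbols the row with the highest mean was kept. Differences were fitted on log2(FPKM + 1) with limma 3.58.1 in R 4.3.3 (trend, empirical Bayes, 3 group means, 6 residual degrees of freedom, Benjamini-Hochberg adjustment), and the fit was tested on simulated data. Coordinates come from GENCODE vM1 (mm9) and promoter sequences from RefSeq (GRCm38.p6).

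Read totals were estimated as the depth at which low values lay nearest to whole multiples of the value of 1 read, given a gene's length. Between 44.4% (eWAT 1) and 63.5% (iWAT 3) of these values lay within 0.15 of a whole read. Some values would lie that near by coincidence, so the estimates are rough and no count test was run.

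The members and lists were chosen with earlier results of these data known. Named genes were the 12 largest differences each way with a group mean of at least 5 FPKM and no overlap (unnamed models, small RNAs and ribosomal proteins left out), a list of core genes, every member of lists of up to 15, and the 4 largest called differences each way of longer lists. Members of isoform families beyond complex IV and the Ucp, Fabp, Plin, Slc27a and Pdk families, and the genes Npr1, Ogdh, Isca1 and Ndufa2, were added after their values were seen. A few genes are not reported here.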

Additional observations from a re-analysis of the deposited data

How the results depend on the processing

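Counts of genes higher and lower in BAT were 2094 and 1398. They were 966 and 461 without eWAT 2 and 3, of which 945 and 458 were among the original calls; this fit has fewer samples, and its median difference over all genes was 0.158 against -0.0225. Array weights gave 3527 lower and 3098 higher genes, so 46.8% of calls were higher against 60%, and a minimum mean of 5 FPKM, which tests fewer genes, gave 844 lower and 1400 higher. With 1 library left out, the higher count ran from 1522 (without BAT 1) to 2575 (without iWAT 1) and the lower count from 806 (without BAT 3) to 2243 (without eWAT 1). The lower count was also moved by over 1.5 times without BAT 2 (824), eWAT 2 (873) or eWAT 3 (840), and without eWAT 1 the higher calls were 46.1% of all. The cause of these shifts was not tested. The other settings, a pseudocount of 0.1, no filter, median-ratio scaling, quantile normalization, the BAT and eWAT libraries alone, listed zeros as missing and a 2-fold minimum, kept both counts within 1.5 times.

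The replicate block gave 2128 higher and 1497 lower genes, of which 2026 and 1335 were among the original calls. Deviations of same-numbered BAT and eWAT libraries from their group means correlated at -0.388, -0.202 and 0.103. Such deviations offset each other within a group of 3, so these values cannot decide whether the numbers pair the samples.

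Of 330 tested genes named in the text, 215 kept their direction and their side of the threshold under every setting in which they were tested. The 2-fold minimum was not applied to single genes, and a gene that a setting left out was not counted there. Over the gene and setting pairs tested, 5697 were kept, 440 lost a call, 42 gained 1 and 18 changed sign.

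The sign changes all belonged to genes that were not called in the first place, with these log2 differences. With array weights they were Slc27a1 (-0.0451) and Zic1 (-0.235). With quantile normalization they were Plin1 (-0.367) and Slc27a1 (-0.108). In the fit without eWAT 2 and 3 they were Arntl (0.273), Cd55 (0.0685), Plin1 (-0.207) and Slc6a8 (0.454). With 1 library left out, the difference ran from -0.0515 to 0.602 for Atp2a2, -0.0608 to 0.254 for Kit, -0.11 to 0.545 for Mbp, -0.304 to 0.161 for Nr1d1, -0.0561 to 0.275 for Plin1, -0.117 to 0.378 for Slc16a10, -0.292 to 0.343 for Slc27a1 and -0.471 to 0.499 for Zic1. The shallow eWAT 2 and 3 libraries limit what can be said of genes near 1 FPKM.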

Other observations

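Of 16 circadian clock genes, 3 were called higher and 1 lower, or 18.8% and 6.25% beside 20.2% and 13.5% of all tested genes. The repressor Nfil3 was at 3.82, 4.31 and 26.6 FPKM in BAT and 1.16, 0.627 and 0.997 in eWAT and the activator Hlf at 5.91, 9.67 and 4.87 FPKM in BAT and 0.445, 2.52 and 1.14 in eWAT, both higher in BAT. The repressor Cry2 was lower (-1.22, adjusted p = 0.00648). The core activators Arntl and Clock and the repressor Per1 were not called. Cholesterol genes had 7 of 24 higher and 2 lower, or 29.2% and 8.33% beside 20.2% and 13.5% of all tested genes. Insig1, a sterol sensor (2.04), and the synthesis enzymes Fdft1 (1.51) and Dhcr7 (1.32) led, with the transporter Stard3 (1.27). The sterol oxidase Sc4mol (-0.898) and the exporter Abca1 (-0.93) were lower. The calls of Sc4mol (without BAT 2), Dhcr7 (without BAT 1, BAT 3 or eWAT 1) and Abca1 (without BAT 1, BAT 3 or eWAT 3) were lost with 1 such library left out.

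Of 11 tested Wnt pathway genes, none was higher and 3 were lower (limma), of which 1 was called without eWAT 2 and 3. The secreted antagonist Sfrp5 (-1.51, adjusted p = 0.00629) was that gene. Its relative Sfrp1 was at 7.13, 2.53 and 4.36 FPKM in BAT and 5.86, 23.9 and 21.9 in eWAT (-1.56, adjusted p = 0.0488), so eWAT 1 lay within the BAT values. The transcription factor Tcf7l2 (-1.50, adjusted p = 0.0144) was at 11.7 FPKM in eWAT 1 against 28.1 and 26.7 in eWAT 2 and 3, and eWAT 1 was nearer to BAT than to the other eWAT libraries for both. Chaperone and unfolded protein genes had 1 of 30 higher, the chaperone Dnajb9 (1.34), and 6 lower (1 without eWAT 2 and 3). Of the tested chaperone and unfolded protein genes, 3.33% were higher and 20% lower, beside 20.2% and 13.5% of all tested genes. Hspa1a, the inducible heat shock protein, was at 39.3, 13.9 and 24.6 FPKM in BAT and 32.7, 134 and 118 in eWAT. The endoplasmic reticulum genes Pdia4 (-1.604), Sdf2l1 (-1.44) and Chac1 (-1.36) were lower too. Of 75 cytosolic ribosomal proteins, 2 were higher and 7 lower, and none of these was called without eWAT 2 and 3. Rpl34 was at 11.01, 15.03 and 17.6 FPKM in BAT and 16.4, 915 and 388 in eWAT (-3.59), the largest difference among them, followed by Rpl30 (-1.49), Rpl37a (-1.23) and Rps18 (-0.95). Rpl28 (1.23) and Rps2 (1.16) were higher. In all, 2.67% of the ribosomal protein genes were higher and 9.33% lower, beside 20.2% and 13.5% of all tested genes. Ribosomal protein genes have many near-identical copies, so their values are uncertain. The calls of Sdf2l1 (without BAT 1, BAT 3 or eWAT 2), Rpl30 (without BAT 2, BAT 3 or eWAT 1), Tcf7l2 (without BAT 2, eWAT 2 or eWAT 3), Rpl37a and Rpl28 (without BAT 2, BAT 3, eWAT 2 or eWAT 3), Rpl34 and Rps2 (without BAT 1, BAT 2, BAT 3, eWAT 2 or eWAT 3), Hspa1a (without BAT 2, BAT 3, eWAT 2, eWAT 3 or iWAT 3) and Sfrp1 and Rps18 (without BAT 1, BAT 2, BAT 3, eWAT 2, eWAT 3 or iWAT 3) were lost with 1 such library left out.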
